A study of Homo sapiens with 6 samples.

Results

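A set of 38 genes that code for proteins of the nuclear matrix, the nuclear lamina and the heterogeneous nuclear ribonucleoprotein (hnRNP) family was examined as DNA that may itself be held by the nuclear matrix. They were listed by name for what their proteins do, with earlier results of these data known, and make up 38 of the 20037 protein-coding genes placed on 24 chromosomes in the GRCh38 gene table. The measurement was MAR-seq, which reads out the DNA that stays bound to the insoluble scaffold of the nucleus, called the nuclear matrix, once nuclei have been extracted with detergent, fixed and cut with restriction enzymes. All samples were the H1 line, an established line of human embryonic stem cells, grown as pluripotent stem cells. The 3 groups held 2 samples each: cells with no treatment (hPSC), cells given a hairpin that targets HNRNPU messenger RNA (shHNRNPU), and cells given one labelled LUC (shLUC), taken here as the hairpin control. Each group had 1 list of regions, with 40106 regions for hPSC, 39368 for shLUC and 36277 for shHNRNPU. Each region was 400 bp wide and had a score of 0, so a region was present or absent and had no height. Read depth is unknown, no spread between the samples of a group could be computed, and neither the cell identity nor the knockdown could be checked, because the lists hold no expression values.

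The nuclear matrix is an operational structure, built from RNA, from hnRNPs that package nascent transcripts, and from architectural proteins. HNRNPU, also called scaffold attachment factor A, binds DNA through a SAP domain and RNA through a glycine-rich domain. SAFB, SATB1 and MATR3 are other proteins described as part of the matrix or as binding matrix attachment DNA. The lamina is a mesh of lamins under the inner nuclear membrane that holds silent chromatin at the nuclear edge, and LINC complexes of SUN and nesprin proteins tie it to the cytoskeleton. CTCF and cohesin set the anchors of chromatin loops, and type II topoisomerases act at those anchors and are classical components of the chromosome scaffold. The question followed here is where the genes for these proteins lie relative to matrix-attached regions and how that differs between the 3 lists.

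Regions near the gene start were denser per kilobase than elsewhere around these genes, so the DNA just before the start is shown first for genes that stand for each pattern. Each line gives 250 bases upstream of a start listed by RefSeq (GRCh38.p14), 5′ to 3′ on the strand of the gene. Capitals mark the sites of the 6 enzymes named in the labels, which are CCGG for MspI, GGCC for HaeIII, GTAC for RsaI, AGCT for AluI, GGATCC for BamHI and CAGCTG for PvuII. Each site reads the same on both strands, the PvuII site holds an AluI site, and neighbouring sites can overlap. The first pair had a region centred within 1 kb of the start in hPSC and shHNRNPU and none in shLUC. The shLUC region of HNRNPU was centred just past that limit, at 1102 bp.
HNRNPU, chr1:244864544-244864793, minus strand: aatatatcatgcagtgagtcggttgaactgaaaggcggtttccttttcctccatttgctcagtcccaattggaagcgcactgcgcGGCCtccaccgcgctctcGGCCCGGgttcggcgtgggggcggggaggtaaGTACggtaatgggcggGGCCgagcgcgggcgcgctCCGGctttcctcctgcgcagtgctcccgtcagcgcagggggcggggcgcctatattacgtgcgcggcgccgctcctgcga
HNRNPM, chr19:8444725-8444974, plus strand: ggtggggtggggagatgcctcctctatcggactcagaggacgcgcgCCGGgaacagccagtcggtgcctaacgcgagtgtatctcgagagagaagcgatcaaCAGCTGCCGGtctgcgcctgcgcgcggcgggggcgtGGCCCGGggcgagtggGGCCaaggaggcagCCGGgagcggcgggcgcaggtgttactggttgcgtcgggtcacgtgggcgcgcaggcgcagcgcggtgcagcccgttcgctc

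The next 3 starts carried a region in all 3 lists.
LEMD3, chr12:65169333-65169582, plus strand: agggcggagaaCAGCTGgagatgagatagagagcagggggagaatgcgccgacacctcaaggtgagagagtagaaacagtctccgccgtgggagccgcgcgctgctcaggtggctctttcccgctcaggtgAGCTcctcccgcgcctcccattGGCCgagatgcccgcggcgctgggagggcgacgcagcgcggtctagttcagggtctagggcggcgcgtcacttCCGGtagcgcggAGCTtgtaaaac
SUN2, chr22:38755999-38756248, minus strand: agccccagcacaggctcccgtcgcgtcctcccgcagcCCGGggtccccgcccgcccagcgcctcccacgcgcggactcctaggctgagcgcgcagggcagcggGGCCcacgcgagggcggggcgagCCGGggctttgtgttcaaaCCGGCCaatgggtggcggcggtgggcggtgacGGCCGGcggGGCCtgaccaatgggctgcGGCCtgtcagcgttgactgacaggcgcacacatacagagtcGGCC
CTCF, chr16:67562276-67562525, plus strand: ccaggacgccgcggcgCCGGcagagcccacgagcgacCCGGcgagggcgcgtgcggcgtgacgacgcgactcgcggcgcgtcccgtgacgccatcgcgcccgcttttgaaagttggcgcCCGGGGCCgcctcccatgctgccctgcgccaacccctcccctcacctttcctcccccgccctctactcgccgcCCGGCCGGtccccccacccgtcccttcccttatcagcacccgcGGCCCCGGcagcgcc

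A start region was found in hPSC and in neither hairpin list for the following pair.
SMC3, chr10:110567445-110567694, plus strand: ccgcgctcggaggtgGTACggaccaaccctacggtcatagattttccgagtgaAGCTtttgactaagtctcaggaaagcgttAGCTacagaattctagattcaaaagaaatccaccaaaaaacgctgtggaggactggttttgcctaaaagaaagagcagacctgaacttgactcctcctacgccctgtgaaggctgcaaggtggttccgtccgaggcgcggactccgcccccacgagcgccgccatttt
TOP2A, chr17:40417897-40418146, minus strand: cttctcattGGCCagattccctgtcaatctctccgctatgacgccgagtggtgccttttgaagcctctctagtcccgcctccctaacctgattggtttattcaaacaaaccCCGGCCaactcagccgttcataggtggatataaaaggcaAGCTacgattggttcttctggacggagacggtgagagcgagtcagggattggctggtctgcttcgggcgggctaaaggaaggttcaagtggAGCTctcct

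The last 3 show the remaining patterns, with a start region in shLUC alone for HNRNPA3 and in both hairpin lists but not in hPSC for STAG1 and LBR. In LBR that region was centred 975 bp into the gene, outside the promoter.
HNRNPA3, chr2:177212544-177212793, plus strand: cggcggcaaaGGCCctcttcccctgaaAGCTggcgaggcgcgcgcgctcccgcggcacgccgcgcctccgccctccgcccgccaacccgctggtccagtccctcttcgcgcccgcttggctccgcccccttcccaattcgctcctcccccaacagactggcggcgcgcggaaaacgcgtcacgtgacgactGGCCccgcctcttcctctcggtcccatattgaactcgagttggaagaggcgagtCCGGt
STAG1, chr3:136752379-136752628, minus strand: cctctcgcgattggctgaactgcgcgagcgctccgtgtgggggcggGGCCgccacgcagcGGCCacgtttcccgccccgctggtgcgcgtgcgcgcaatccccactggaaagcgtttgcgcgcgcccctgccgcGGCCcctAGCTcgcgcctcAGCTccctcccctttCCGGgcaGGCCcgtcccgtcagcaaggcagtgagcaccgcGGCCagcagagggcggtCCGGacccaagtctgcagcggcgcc
LBR, chr1:225428822-225429071, minus strand: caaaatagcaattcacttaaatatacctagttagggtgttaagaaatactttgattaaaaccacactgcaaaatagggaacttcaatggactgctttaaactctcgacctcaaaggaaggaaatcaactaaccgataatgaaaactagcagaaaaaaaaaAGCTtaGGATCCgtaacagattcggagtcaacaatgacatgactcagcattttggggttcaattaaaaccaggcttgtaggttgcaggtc

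The upstream sequence of LBR was the least GC-rich of those printed. Counted over the 300 bases from 250 upstream to 50 downstream of the start, GC content was 77.0% in SUN2, 75.3% in CTCF, 71.3% in STAG1, 70.7% in HNRNPM and 70.0% in HNRNPA3. It was 67.0% in HNRNPU, 65.3% in LEMD3, 56.0% in SMC3, 55.7% in TOP2A and 38.3% in LBR.

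Nearly all of the 38 genes carried matrix-attached DNA, and more of them did so than protein-coding genes in general. With each gene taken as its body plus 10 kb on each side, 36 of 38 held at least 1 hPSC region, beside 74.5% of all protein-coding genes. At least 1 shLUC region was held by 34 (all genes 68.8%) and at least 1 shHNRNPU region by 33 (all genes 67.6%). Regions of all 3 lists were found at 29 genes, against 51.6% of all genes. The 2 genes with no hPSC region were HNRNPA3 and HNRNPC. The 4 with no shLUC region were HNRNPR, SAFB2, SMC3 and TPR, and the 5 with no shHNRNPU region were HNRNPA3, HNRNPD, HNRNPH1, HNRNPL and HNRNPR.

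The counts were also set beside genes of similar length. Protein-coding genes whose window length lay within 25% of each member's would give 29.8 genes with a region in hPSC, 27.4 in shLUC and 26.9 in shHNRNPU, beside the 36, 34 and 33 observed. Summed over the 38 windows there were 92 hPSC regions, 74 shLUC regions and 71 shHNRNPU regions. The windows of the neighbours SAFB and SAFB2 overlap, so these sums stand for 91, 74 and 70 distinct regions, with exact 95% Poisson intervals of 73.3 to 112, 58.1 to 92.9 and 54.6 to 88.4. All intervals given here cover counting error within a list only.

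The sum over windows was above that of genes of similar length in each list, as a description with no test. The ratio of the summed regions to the mean of similar-length genes was 1.37 in hPSC (interval 1.10 to 1.68), from 92 and 67.3 regions. In hPSC 23 of 38 genes lay above their own mean. The ratio was 1.17 in shLUC (0.919 to 1.47) with 21 genes above, and 1.21 in shHNRNPU (0.944 to 1.52) with 20 above. No such count over all genes is given here. Away from the gene's own start the ratios were 1.26 in hPSC (0.961 to 1.61), 1.14 in shLUC (0.862 to 1.47) and 1.16 in shHNRNPU (0.873 to 1.52). Only the first hPSC interval lay wholly above 1. The genes were matched by length only, and neither expression nor gene density entered the match. The median gene held 2 hPSC regions, 1 shLUC region and 1 shHNRNPU region, and the median of all protein-coding genes was 1 in each list.

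**Figure D1:**
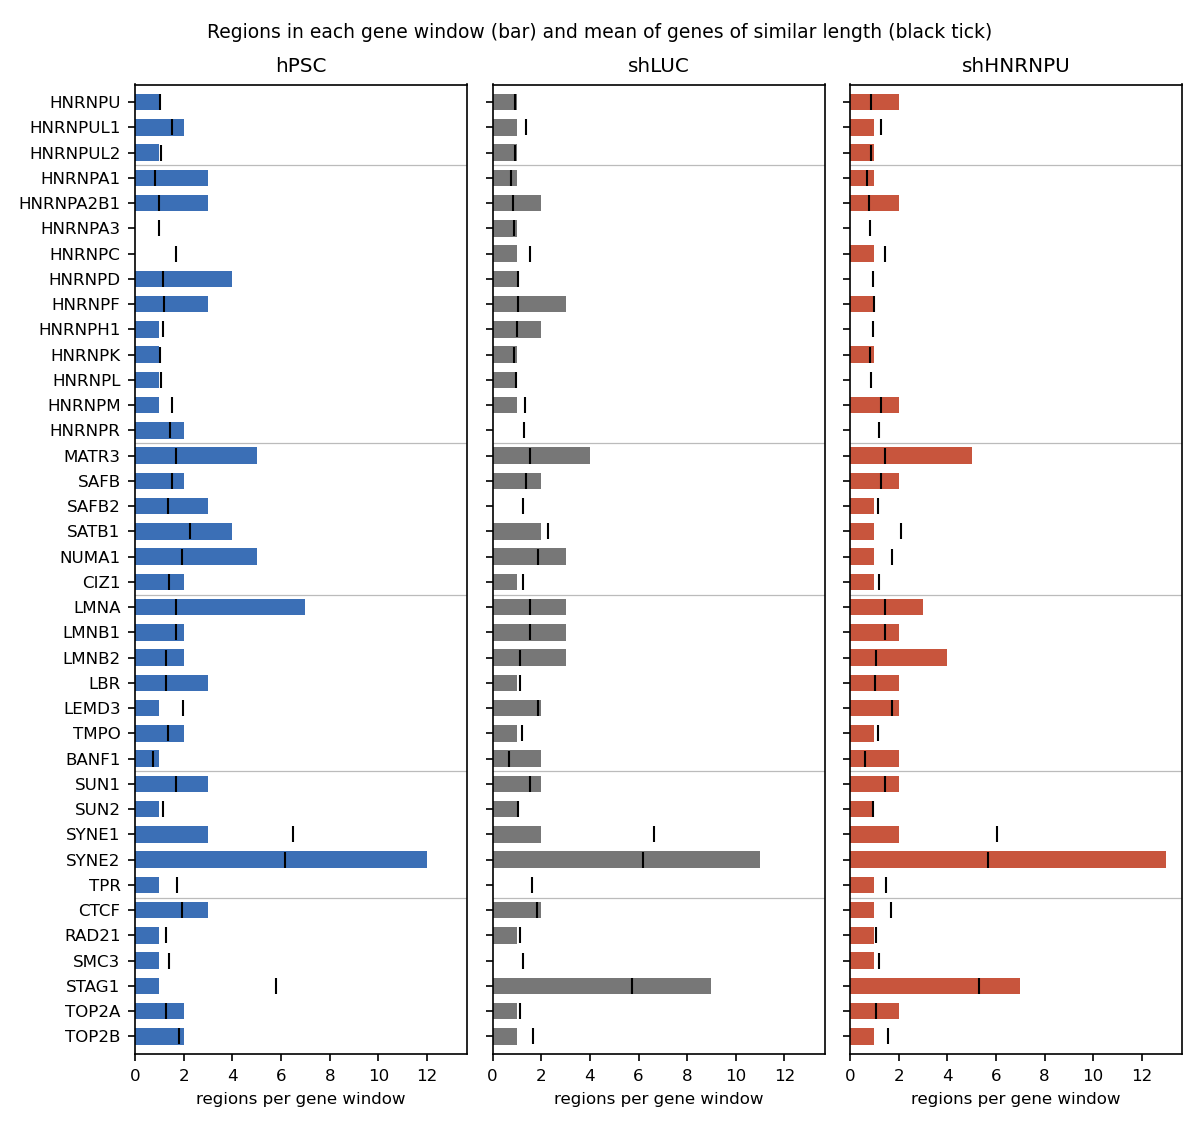
Number of MAR-seq regions in the window of each of the 38 genes (bars; gene body plus 10 kb on each side) in the hPSC, shLUC and shHNRNPU lists, with the mean of protein-coding genes of similar length as a black tick and grey lines between the functional groups. SYNE2 reaches 12, 11 and 13 regions, while STAG1 has 1 in hPSC and 9 and 7 in the hairpin lists.

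The start of the gene carried a region more often in these genes than in protein-coding genes in general. Strand was known from RefSeq promoters for 35 of the 38 genes, and not for HNRNPA1, SUN1 and RAD21. A region centre lay within 1 kb of the gene start in 23 of 35 genes in hPSC, 65.7% beside 41.2% of 15843 protein-coding genes with a known strand. In shLUC 12 of 35 starts carried a region (34.3% beside 24.2%), and in shHNRNPU 13 of 35 did (37.1% beside 25.4%). Similar-length genes would give 15.6, 8.69 and 9.10 starts with a region. In 9 of the 23 genes the hPSC start region also lay within 1 kb of the start of another protein-coding gene (39.1%, beside 21.6% of all genes with an hPSC start region), and SAFB and SAFB2 were marked by the same region. An hPSC start region near no other start was found in 14 of 35 genes (40.0%, beside 32.3% of all genes), so the distance from all genes was smaller by that count. In shLUC it was 11 of 35 (31.4% beside 20.4%) and in shHNRNPU 12 of 35 (34.3% beside 21.4%), with HNRNPUL2 and its neighbour TTC9C as the shared start in both. All 23 hPSC starts remained at a limit of 500 bp (35.9% of all genes), while the shLUC starts went from 12 to 9 (19.8%) and the shHNRNPU starts from 13 to 10 (21.1%). At the opposite end of the gene, a region within 1 kb was found in 1 gene in hPSC, 1 in shLUC and 0 in shHNRNPU, beside 5.02%, 4.08% and 3.82% of all genes.

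**Figure D2:**
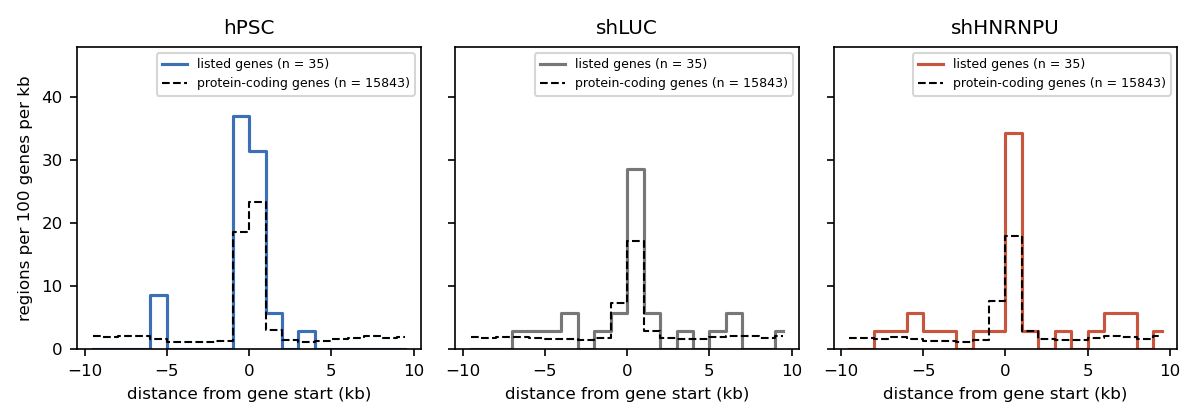
Regions per 100 genes in 1 kb bins from 10 kb upstream to 10 kb downstream of the gene start for 35 of the genes (solid, coloured) and 15843 protein-coding genes (dashed, black), by list. In hPSC the bins on both sides of the start reach 37.1 and 31.4 for the listed genes against 18.6 and 23.3 for all genes, while the hairpin lists peak in the first kilobase inside the gene (28.6 in shLUC and 34.3 in shHNRNPU).

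Which starts were marked differed between the untreated and the hairpin lists. A start region in hPSC alone was found in 15 genes, HNRNPA2B1, HNRNPD, HNRNPF, HNRNPK, HNRNPR, MATR3, SAFB, SAFB2, SATB1, LMNA, BANF1, NUMA1, SMC3, TOP2A and TPR (23.0% of all genes had this pattern). The lists all marked the start of 6 genes, HNRNPUL2, LEMD3, TMPO, SUN2, CTCF and TOP2B (11.0% of all genes). HNRNPU and HNRNPM had a start region in hPSC and shHNRNPU (4.00%), and HNRNPUL1, LMNB2, LBR, SYNE1 and STAG1 had one in both hairpin lists and not in hPSC (8.08%). HNRNPA3 had one in shLUC alone (1.94%). No start region was found in any list at HNRNPC, HNRNPH1, HNRNPL, LMNB1, SYNE2 and CIZ1, 6 of 35 against 46.4% of all genes. The gene start used here is the outermost boundary in the gene table. Counting any start that RefSeq lists for a gene gave 25, 16 and 16 genes in hPSC, shLUC and shHNRNPU (44.9%, 27.1% and 28.3% of all genes). By that count both hairpin lists marked an inner start of SYNE2, with a region centred 31 bp from it, and hPSC marked inner starts of CIZ1 and HNRNPH1. The hairpin lists also marked inner starts of HNRNPF and SATB1, as did hPSC, and shLUC marked one of HNRNPH1. Inner starts of MATR3 and LMNA were marked in hPSC as well.

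**Figure D3:**
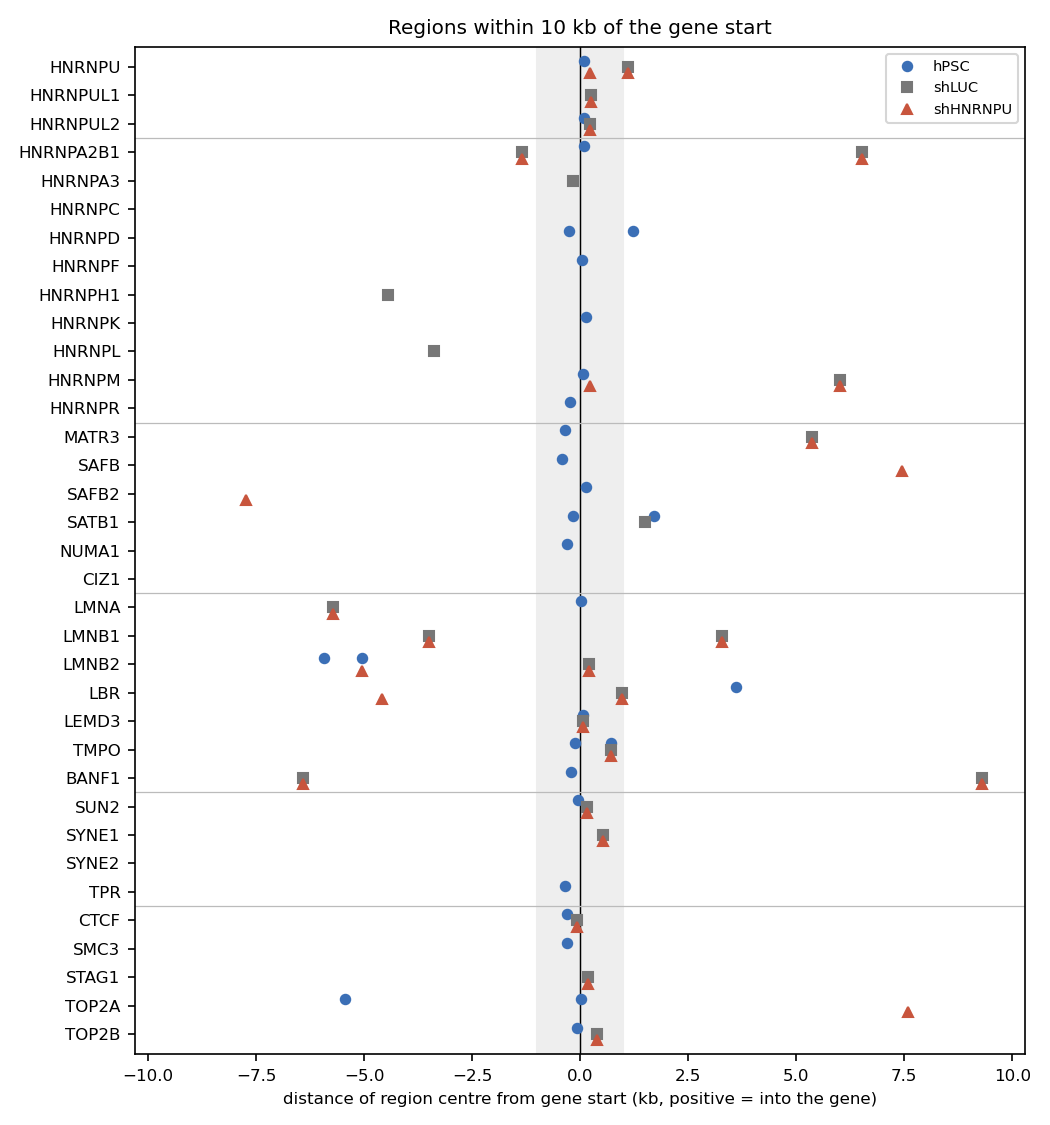
Position of each region centre within 10 kb of the gene start for the 35 genes with a known strand (x axis in kb, positive into the gene; circles hPSC, squares shLUC, triangles shHNRNPU; the grey band marks 1 kb on each side). The hPSC circles lie close to the start in 23 genes, and squares and triangles at the same gene mostly share a position.

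Where a start was marked in untreated and hairpin cells, the hairpin centre nearest the start lay downstream of the nearest hPSC centre. Taking for each list the region centre nearest the start, the HNRNPU region was at 83 bp in hPSC and 239 bp in shHNRNPU, and the HNRNPM region at 74 bp and 235 bp. CTCF moved from -304 bp in hPSC to -66 bp in both hairpin lists, and SUN2 from -49 bp to 152 bp. At HNRNPUL2 the centres were 96 bp and 229 bp, at LEMD3 61 bp and 73 bp, at TOP2B -63 bp and 380 bp, and at TMPO -114 bp and 720 bp. Thus 8 of 8 such genes had the shHNRNPU centre downstream of the hPSC centre, with a median shift of 181 bp, whereas 45.0% of 2372 protein-coding genes did, with a median shift of 0 bp. Between hPSC and shLUC it was 6 of 6 genes, beside 46.0% of 2244. These counts share the hPSC list and 6 genes, and the comparison was chosen after the positions had been seen. At TMPO the hPSC list held a further region at 720 bp, at the same place as the hairpin region. Between shLUC and shHNRNPU all 11 shared start centres were equal, as were 98.7% of 3018 over all genes.

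Promoters whose 300 bases overlapped a hairpin region were the GC-rich ones among these genes. Those that overlapped an hPSC region reached to lower GC content. Start regions centred further into the gene can fall outside this count. Both hairpin lists held such regions within 1 kb of the starts of LBR (38.3% GC), SYNE1 (51.7%), TOP2B (62.3%), HNRNPUL1 (63.7%) and TMPO (65.0%). The GC contrast therefore refers to the 300 bases and not to all start regions. Over the 35 promoters of 300 bases, an hPSC region overlapped 23, a shLUC region 8 and a shHNRNPU region 9, against 32.2%, 16.3% and 17.4% of all 15843 promoters. The 17 promoters with an hPSC region only had a median GC content of 62.3% (55.7% to 69.7%). The 6 with an hPSC and a hairpin region had a median of 69.5% (65.3% to 77.0%), the 4 with a hairpin region only (HNRNPA3, LMNB2, SYNE2 and STAG1) 70.7% (67.7% to 71.7%), and the 8 with none 56.8% (38.3% to 66.7%). The medians over all promoters ran in the same order, at 63.7%, 69.0%, 72.0% and 58.3%.

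The promoters were also set beside all promoters of similar GC content. Between 60% and 70% GC, 16 of 21 listed promoters carried an hPSC region beside 42.4% of all promoters, and between 50% and 60% it was 4 of 6 beside 30.8%. In the same 2 bands shLUC marked 3 of 21 (17.3% of all) and 0 of 6 (6.64%), and shHNRNPU marked 4 of 21 (17.3%) and 0 of 6 (7.68%). Below 50% GC lay 2 listed promoters, with 0 marked in any list, beside 6.75%, 0.738% and 1.30% of all promoters. At 70% GC or more the counts out of 6 were 3 in hPSC, 5 in shLUC and 5 in shHNRNPU, beside 37.7%, 34.3% and 37.4% of all promoters. The median GC content was 65.0% for the listed promoters and 62.7% for all. The part of base composition in the start counts was not tested beyond these values.

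**Figure D4:**
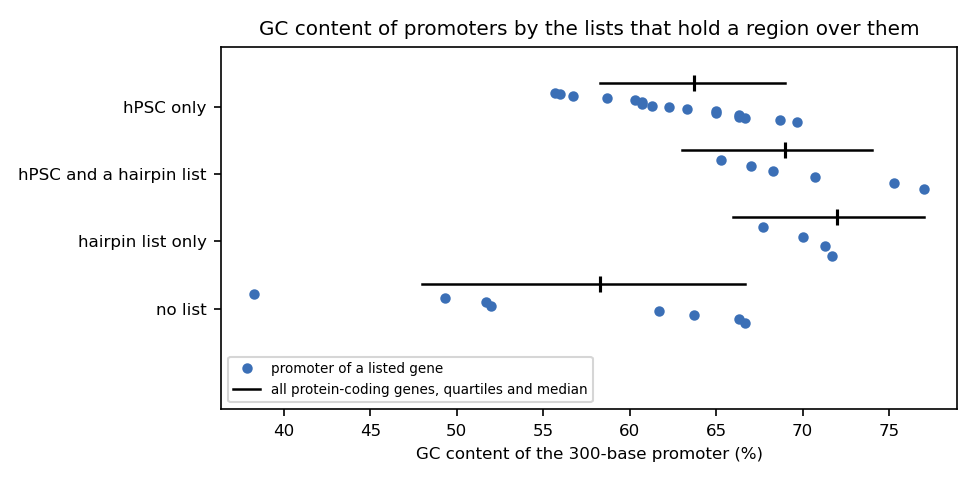
GC content of the promoters of 35 of the genes (points) by whether an hPSC region, a region of a hairpin list (shLUC or shHNRNPU), both or none overlapped the 300 bases, with the median and quartiles over all 15843 promoters (black line and tick). The 10 promoters with a hairpin region lie between 65.3% and 77.0%, and the 17 with an hPSC region only between 55.7% and 69.7%.

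The listed promoters held as many sites of the digesting enzymes as others, with a median of 7 in both. The MspI site CCGG was in 85.7% of listed promoters (75.6% of all), the HaeIII site GGCC in 88.6% (85.4%), and the RsaI site GTAC in 31.4% (27.6%). The AluI site AGCT was in 62.9% (73.2% of all), the BamHI site GGATCC in 2.86% (7.25%), and the PvuII site CAGCTG in 14.3% (17.5%). The SUN2 promoter held 15 sites and carried a region in all 3 lists, and the HNRNPK promoter held 1 and carried a region in hPSC. These matches describe the letters of the promoters, and whether each site was cut is not known.

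HNRNPU, the target of the knockdown, carried a matrix region of its own in each list, and a further one in shHNRNPU. Its window held 1 region in hPSC, 1 in shLUC and 2 in shHNRNPU, beside means of 1.04, 0.922 and 0.857 over 6089 genes of similar length. The region chr1:244863242-244863641, centred 1102 bp into the gene, was in both hairpin lists. The second shHNRNPU region, chr1:244864105-244864504, overlapped the hPSC region chr1:244864261-244864660, which covered 117 of the upstream bases printed for HNRNPU. HNRNPUL1, a relative that binds RNA and takes part in the response to DNA breaks, held 2, 1 and 1 regions, and its hairpin region lay 257 bp into the gene in both hairpin lists. HNRNPUL2, a further SAP-domain relative, held 1 in each list, near its start in all of them. The U family thus totalled 4, 3 and 4 regions in hPSC, shLUC and shHNRNPU, close to the 3.59, 3.22 and 2.99 of similar-length genes. A region found in some lists and missing in others has no replicate behind it, and such differences at single genes were not tested.

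The other hnRNP genes were the group with the fewest regions in shHNRNPU relative to shLUC. These 11 genes, whose products bind nascent RNA and steer splicing, stability and export, held 19 hPSC, 14 shLUC and 8 shHNRNPU regions, where similar-length genes would give 13.0, 11.6 and 10.8. From shLUC to shHNRNPU, 5 of them had fewer regions (24.5% of all genes), 5 as many and 1 more (17.3%). A shLUC region was held by 10 of the 11 (68.8% of all genes) and a shHNRNPU region by 6 (67.6%).

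HNRNPD (AUF1), which binds AU-rich elements of messenger RNA, held 4 hPSC regions, 1 shLUC region and 0 shHNRNPU regions. Its shLUC region, chr4:82363772-82364171, was also an hPSC region. HNRNPF, a splicing factor that binds runs of G, held 3, 3 and 1, and its remaining shHNRNPU region was centred at -14 bp from an inner start. HNRNPH1, its relative with the same binding preference, held 1, 2 and 0, and HNRNPL, which binds CA repeats, held 1, 1 and 0. The only region of HNRNPA3, chr2:177212438-177212837, was in shLUC and covered all 250 upstream bases printed for it. HNRNPM, a splicing regulator, was the 1 gene of the group with more, holding 1, 1 and 2. Its second shHNRNPU region, chr19:8445011-8445410, overlapped the hPSC region chr19:8444850-8445249 at the start.

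The remaining members of the group had equal counts in the hairpin lists. HNRNPA2B1, a core protein of the particles that package nascent RNA, held 3, 2 and 2 regions, and its core partner HNRNPA1 held 3, 1 and 1. The hPSC region at the HNRNPA2B1 start also lay within 1 kb of the start of CBX3, the neighbouring gene on the other strand. HNRNPC, the core protein that measures the length of nascent RNA, held 0, 1 and 1. HNRNPK, a KH-domain protein that binds C-rich sequence, held 1 in each list, and HNRNPR, another RNA-binding hnRNP, held 2 hPSC regions and 0 in both hairpin lists.

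Genes of matrix proteins and attachment factors carried about the same number of regions in both hairpin lists and more in hPSC. The 6 genes held 21 hPSC, 12 shLUC and 11 shHNRNPU regions against 10.1, 9.52 and 8.86 in similar-length genes. A start region was present in 5 of the 6 in hPSC (41.2% of all genes) and in 0 in shLUC and shHNRNPU (24.2% and 25.4%), and the SAFB and SAFB2 starts shared 1 region.

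MATR3, which codes for matrin 3, an inner matrix protein that binds RNA and DNA, held 5, 4 and 5 regions, and as many or more were found in 2.01%, 7.45% and 1.67% of 3289 similar-length genes. Its shHNRNPU regions chr5:139303151-139303550 and chr5:139312023-139312422 overlapped hPSC regions and were absent from shLUC. NUMA1, whose large coiled-coil product organises the spindle pole and belongs to the interphase matrix, held 5, 3 and 1. The single shHNRNPU region, chr11:72013142-72013541, was shared with shLUC. SATB1, a chromatin organiser that binds base-unpairing matrix attachment DNA, held 4, 2 and 1, and the 2 shLUC regions and the shHNRNPU region overlapped hPSC regions.

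SAFB and SAFB2, the scaffold attachment factors B, lie head to head on chromosome 19 and shared the hPSC region chr19:5622453-5622852 between their starts, at -431 bp of SAFB and 124 bp of SAFB2. SAFB held 2 regions in each list, and SAFB2 held 3, 0 and 1. The single shHNRNPU region in the SAFB2 window, chr19:5630322-5630721, lay in the body of SAFB. CIZ1, a matrix-anchored protein of DNA replication, held 2, 1 and 1, with no overlap between the lists. Of all shLUC regions, 70.8% overlapped a shHNRNPU region and 14.2% an hPSC region.

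Lamina genes carried more regions in sum than genes of their length in each list, with nearly equal sums in both hairpin lists. The 7 genes held 18 hPSC, 15 shLUC and 16 shHNRNPU regions against 9.94, 9.10 and 8.53, and all 7 held at least 1 region in every list (51.6% of all genes). From shLUC to shHNRNPU 1 had fewer (24.5% of all genes), 4 equal and 2 more (17.3%).

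LMNA, the gene of lamins A and C, held 7 regions in hPSC and 3 in each hairpin list. Among 3295 genes of similar length, 0.152% held as many or more in hPSC, 20.2% in shLUC and 17.5% in shHNRNPU. None of the 7 hPSC regions overlapped a hairpin region, and the 3 hairpin regions were the same in both lists. One hPSC region was centred at 24 bp, where it also lay within 1 kb of the start of the neighbour MEX3A, and another, chr1:156106303-156106702, at -214 bp from an inner start.

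The B-type lamins differed from each other in the hairpin comparison. LMNB1, the lamin B1 gene, held 2, 3 and 2 regions, and LMNB2, the lamin B2 gene, held 2, 3 and 4. The region that LMNB2 had in shHNRNPU and not in shLUC, chr19:2461805-2462204, was present in hPSC at the same coordinates, centred at -5045 bp from the start. The 3 shLUC regions of LMNB2 were all in shHNRNPU.

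LBR, the lamin B receptor, which holds heterochromatin to the inner membrane, held 3 regions in hPSC, 1 in shLUC and 2 in shHNRNPU. The other inner membrane genes varied little. LEMD3 (MAN1) held 1, 2 and 2 and TMPO, which codes for the LAP2 proteins, held 2, 1 and 1. BANF1, whose product bridges DNA and LEM-domain proteins, is the shortest of the 38 at 1.65 kb and held 1, 2 and 2. Its hPSC region was at the start, while both hairpin regions lay in the flanks at -6426 and 9294 bp.

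The nesprin genes SYNE1 and SYNE2, the longest of the list, stood at opposite sides of genes of their length. SYNE2, which codes for nesprin-2 and spans 465 kb, held 12 regions in hPSC, 11 in shLUC and 13 in shHNRNPU, beside means of 6.16, 6.18 and 5.68 over 410 similar genes. SYNE1, which codes for nesprin-1 and spans 516 kb, held 3, 2 and 2, beside means of 6.47, 6.62 and 6.04 over 339 similar genes. As few or fewer regions as SYNE1 were found in 19.8%, 10.0% and 13.6% of those, and as many or more as SYNE2 in 6.83%, 12.9% and 3.41% of its own set.

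Every SYNE2 region of the 3 lists lay in the gene body, as the map along the gene shows. SUN1 and SUN2, the inner-membrane partners of the nesprins, held 3, 2 and 2 regions and 1, 1 and 1. TPR, the nuclear basket protein of the pore, held 1, 0 and 1, with its hPSC region at -356 bp and its shHNRNPU region at 18.1 kb.

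**Figure D5:**
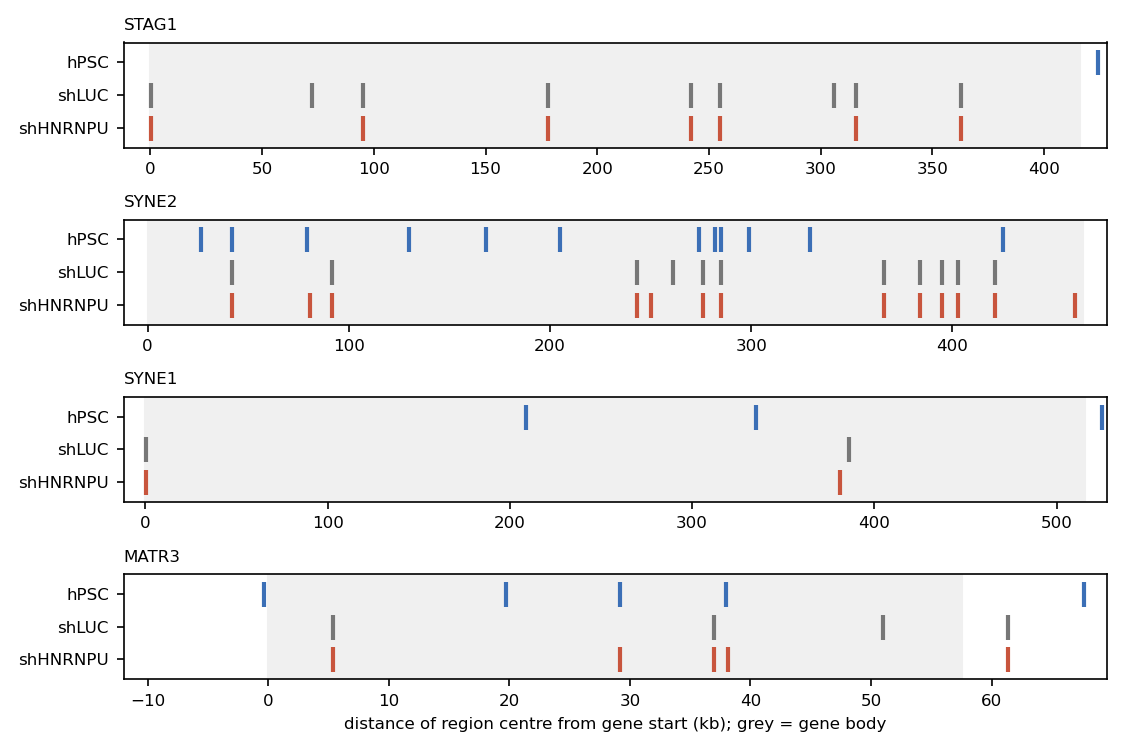
Region centres along STAG1, SYNE2, SYNE1 and MATR3 (x axis in kb from the gene start; grey, gene body; one row of ticks per list). In STAG1 all 7 shHNRNPU positions are also shLUC positions and the single hPSC region lies beyond the gene, whereas SYNE2 carries 12, 11 and 13 regions spread over its body.

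Genes of loop anchors and topoisomerases were the group with fewer regions in hPSC than in the hairpin lists, and without STAG1 the order turned. The 6 genes held 10 hPSC, 14 shLUC and 13 shHNRNPU regions, where similar-length genes would give 13.4, 12.8 and 11.9. Without STAG1 the other 5 held 9, 5 and 6. STAG1, which codes for a cohesin subunit, held 1, 9 and 7. Its means over 459 similar genes were 5.78, 5.73 and 5.29, and in hPSC 5.66% of them held as few regions or fewer. The single hPSC region, chr3:136327894-136328293, lay beyond the end of the gene in the body of PCCB, so the 416 kb body of STAG1 held 0 hPSC regions. The 9 shLUC regions all lay in the body, 7 of them were shared with shHNRNPU, and those at 72.3 and 306 kb were not.

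CTCF, the zinc-finger protein that stops loop extrusion, held 3, 2 and 1 regions, and the remaining one was the start region chr16:67562261-67562660 of both hairpin lists. TOP2A, the topoisomerase of dividing cells, held 2, 1 and 2, and its paralogue TOP2B held 2, 1 and 1. The cohesin ring genes SMC3 and RAD21 held 1, 0 and 1 and 1, 1 and 1. The hPSC region of SMC3 was at -309 bp, and its shHNRNPU region 45.3 kb from the start, in the downstream flank.

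The knockdown and its hairpin control were then set side by side across the list. From shLUC to shHNRNPU, 10 genes had fewer regions (24.5% of all protein-coding genes had fewer), 10 had more (17.3% of all) and 18 had as many. Those with fewer were HNRNPA3, HNRNPD, HNRNPF, HNRNPH1, HNRNPL, SATB1, LMNB1, NUMA1, CTCF and STAG1. Those with more were HNRNPU, HNRNPM, MATR3, SAFB2, LMNB2, LBR, SYNE2, SMC3, TOP2A and TPR. The change of any gene was at most 2 regions in either direction, and the median over the list and over all genes was 0. Across distinct regions the log2 ratio of the sums was -0.08, and that of the list lengths -0.12. With 50 kb on each side in place of 10 kb the number with fewer regions was 16, and within gene bodies alone the number with more was 6, so the balance of the directions depends on the window.

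The positions behind these counts were mostly the same. Of the 74 shLUC regions at the 38 genes, 54 overlapped a shHNRNPU region (73.0%, exact Clopper-Pearson interval 61.4 to 82.6%), beside 70.8% of the whole list. All 54 had identical coordinates, against 3 of the 12 shLUC regions that overlapped an hPSC region. How coordinates were set for each list is not stated, and the source of the exact match was not tested. The 54 shared regions lay at 29 genes, 11 of them at the gene's own start. The 20 shLUC regions without a partner lay at 16 genes with 1 at a start, and the 16 shHNRNPU regions without a partner lay at 13 genes with 2 at a start, those of HNRNPU and HNRNPM. Looked up in the hPSC list, 10 of the 54 shared regions had a partner there (18.5%, 9.25 to 31.4%), as did 2 of the 20 in shLUC only (10.0%, 1.23 to 31.7%) and 5 of the 16 in shHNRNPU only (31.2%, 11.0 to 58.7%). These intervals overlap. Over the whole lists 14.2% of shLUC regions and 17.3% of shHNRNPU regions had an hPSC partner, and whole-list shares by class are not given here. The 5 in shHNRNPU only were the regions of HNRNPU, HNRNPM and LMNB2 and the 2 of MATR3 already described.

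Untreated and hairpin control cells shared fewer region positions than the hairpin lists did. With hPSC set against shLUC, 21 genes had more regions in hPSC (36.0% of all genes), 8 had fewer (30.1% of all) and 9 had as many. The largest difference in either direction was in STAG1, with 8 fewer, and LMNA, with 4 more. Across distinct regions the log2 ratio of hPSC to shLUC was 0.30, beside 0.03 for the list lengths. Of the 74 shLUC regions, 12 overlapped an hPSC region (16.2%, Clopper-Pearson interval 8.67 to 26.6%; whole list 14.2%), and 15 of the 70 distinct shHNRNPU regions did (21.4%, 12.5 to 32.9%; whole list 17.3%). With a region within 5 kb counted as shared, 39.2% of the shLUC regions had a partner in hPSC. Both hairpin lists were set against the same hPSC list. Transduction, batch and region calling cannot be told apart as sources of the gap between hPSC and the hairpin lists, since the labels give no batch.

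The flanks also held more regions in hPSC, but part of these were the start regions already counted. Centres within 1 kb upstream of the gene's own start count as flank, with 13 in hPSC, 2 in shLUC and 1 in shHNRNPU. Of the 91 hPSC regions 57 lay in a gene body and 34 in a flank, and 8 of these 34 were within 1 kb of the start of another protein-coding gene. In shLUC 56 of 74 lay in a body and 18 in a flank with 1 at another start, and in shHNRNPU 53 of 70 lay in a body and 17 in a flank with 1 at another start. The same split over all gene windows is not given here. Over all genes with a known strand, a start region was found in 41.2% in hPSC, 24.2% in shLUC and 25.4% in shHNRNPU.

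A further 46 genes of the same families, not among the 38, had a region in about the same share as all protein-coding genes. They included other hnRNPs and RNA-binding proteins, further matrix proteins, inner membrane proteins and nucleoporins, and cohesin factors. Of these, 36 held an hPSC region (78.3%), 31 a shLUC region (67.4%) and 29 a shHNRNPU region (63.0%), near the 74.5%, 68.8% and 67.6% of all genes. A start region was present in 15 of 37 with a known strand in hPSC (40.5%), 10 in shLUC (27.0%) and 11 in shHNRNPU (29.7%), again near all genes. From shLUC to shHNRNPU 13 had fewer regions, 24 as many and 9 more, beside 24.5% fewer and 17.3% more over all genes. The 14 hnRNPs and related RNA-binding genes among them held 17, 18 and 17 regions, beside 19, 14 and 8 for the 11 hnRNPs of the main list. No test of the difference between these gene lists was made.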

How the data were processed

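MAR-seq was performed on 6 samples of H1 cells in 3 groups of 2. Per the submitters' processing notes, cutadapt, Bowtie2, SAMtools, MACS2 and deepTools were used with build hg38. Versions, thresholds and the pooling of samples are not given in the sources used here. No methods were taken from the paper, which reports other experiments. The authors deposited 1 region list per group with a chromosome, a start and an end, and a score that was 0 throughout in the deposited lists. Per-sample depth is therefore unknown, and no test was run.

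Regions were counted from 1 and assigned to a gene when they overlapped its body plus 10 kb on each side by at least 1 bp. Gene positions were those of RefSeq (GRCh38), and strand and promoter sequence came from the RefSeq promoter table (GRCh38.p14), which matched 35 of the 38 genes. Exons and introns are not analysed here. Similar-length genes had a window length within 25% of the member's. Sums have exact Poisson and shares Clopper-Pearson 95% intervals. All 38 genes are named, in order of role. Coordinates are given for regions at starts and for genes that differed between the lists. The members, roles and the wider list were chosen by name, with earlier results of these data known. Alternatives changed the flank, the overlap rule, the length match, the distance to the start, the chromosomes, the merging and scaling of regions, and the 2 longest genes. On simulated data, the counts of 200 of 200 planted genes were recovered. Scripts ran in Python 3.11.15 (scipy 1.17.1, numpy 2.4.6, matplotlib 3.10.9, pandas 2.3.3).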

Additional observations from a re-analysis of the deposited data

How the results depend on the processing

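A total of 17 results were recomputed in 83 settings, and 80 of these values stayed within 1.5 times the count or within the counting interval. The other 3 did not, and the cause was not tested. With 50 kb on each side of the gene, 16 genes had fewer regions in shHNRNPU than in shLUC in place of 10. In gene bodies alone, 6 genes had more in place of 10. With regions within 5 kb counted as shared, 39.2% of shLUC regions were shared with hPSC in place of 16.2%. The ratio to genes of similar length ran from 1.27 to 1.41 in hPSC, 1.13 to 1.21 in shLUC and 1.16 to 1.21 in shHNRNPU. The log2 ratio of regions in shHNRNPU to shLUC, summed over windows, was -0.06 and turned to 0.06 after scaling to equal list length, both within its counting interval, which is the 1 change of sign among the 80. Counting any listed start was chosen after seeing the data. No paired analysis was possible because the 2 samples of a group are represented by 1 shared list. Leaving out a replicate was not run for the same reason. The number of regions may depend on read depth and calling threshold, neither of which is known.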

Other observations

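Among the 46 further genes, several showed large contrasts between untreated and hairpin cells. TOP1, the type I topoisomerase, held 4 regions in hPSC and 0 in each hairpin list, and NCL, the nucleolin gene, held 2 and 0. PDS5B, a cohesin regulator, held 2 regions in hPSC and 6 in each hairpin list. CUX1, a homeodomain protein known for binding matrix attachment DNA, held 8 in hPSC, 4 in shLUC and 5 in shHNRNPU, with a start region in hPSC. The X-linked genes NONO, RBMX, HNRNPH2 and SMC1A held 0 regions in all 3 lists, as did AKAP8, HNRNPA0 and SRRM1 on other chromosomes. Over all protein-coding genes 12.6% held none in any list. STAG2, also on the X chromosome, held 2 in each. EMD, the remaining X-linked gene, held 0 in hPSC and 1 in each hairpin list. These genes were picked after their values had been seen, and their differences were not tested.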
